A study of Mus musculus with 21 samples.

Results

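Krüppel-like factors are zinc-finger transcription factors that bind GC-rich and CACC sequences in promoters and enhancers. Klf2, Klf3, Klf4, Klf5 and Klf9 are described here through every array probe whose annotated gene symbol is one of these 5 names, on all 21 arrays in 7 groups. That gave 8 probes of the 45281 on the array. A probe was kept for testing if its signal stood above background, at a detection p-value under 0.05, on at least 3 arrays, which left 7 of the 8. The 5 genes, each read through its brightest kept probe, were among 11649 genes tested.

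Klf2, Klf4 and Klf5 are known in mouse embryonic stem cells as activators of the naive pluripotency network, where they can partly stand in for each other. In those cells LIF, acting through STAT3, is known to induce Klf4, and ERK signalling is known to lower Klf2 and Klf4. Klf3 is mainly a repressor that recruits CtBP proteins, and Klf9 is known as a gene induced by glucocorticoid and thyroid hormone.

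The series asks whether germ cell-like cells made from mutant lines resemble those of the wild type. Otx2/Blimp1-null PGCLC (primordial germ cell-like cells) came from a line labelled Otx2-/-; Blimp1-/-, and Otx2-null PGCLC came from a line labelled Otx2-/-, whose alleles are Otx2GFP/lacZ in both. Another day-6 group, Otx2-null cells without cytokines, was taken from aggregates of that Otx2-/- line in basal medium (GK15, 15% KSR, a serum replacement) alone, and WT PGCLC came from the wild-type embryonic stem cell line E14Tg2a. The PGCLC groups had BMP4, LIF, BMP8a, SCF and EGF in the same medium, and all 4 day-6 groups, those without cytokines included, were SSEA1+ and CD61+ cells per the labels. The 3 remaining groups were epiblast-like cells (EpiLC) of the same 3 lines, the cells that the aggregates start from, after 2 days in N2B27 with activin, FGF2 and 1% KSR. Each group had 3 arrays. Each genotype was represented by 1 line, so genotype and line cannot be told apart. The labels do not say whether replicates were separate cultures, and the p-values then cover only the spread among these arrays, which may be technical.

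Between 14088 and 15861 probes were detected per EpiLC array, 15961 to 16507 per Otx2/Blimp1-null PGCLC array and 17527 to 19556 per array of the other 3 day-6 groups. The intensity column of Otx2-null PGCLC replicate 2 had been deposited with its probes in a different order. Its ranks correlated at 0.00547 with the same array's column among the authors' normalized values, against 1 for each other array. It was put in order by the ranks of that normalized column, so the order used here is that column's. Results of the 5 genes that use this array are also given without it. The Otx2 probe was detected in all 7 groups, with mean log2 signals from 9.34 to 11.49 in the groups labelled Otx2-null, against 7.63 in WT PGCLC and 10.98 in WT EpiLC. No probe of Prdm1, the gene of Blimp1, was kept. Whether the Otx2 probe lies in a part removed from the GFP and lacZ alleles is not given in the sources used here, so the genotypes are those of the labels.

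As a check of cell identity, the summed signal of 6 kept germ cell markers was 3440 to 4297 in Otx2/Blimp1-null PGCLC, 10530 to 12760 in Otx2-null PGCLC, 17830 to 21470 in Otx2-null cells without cytokines and 19290 to 23400 in WT PGCLC. In EpiLC of the 3 lines it was 773.4 to 1874. Of the 2 sort markers, Fut4 (the enzyme that makes SSEA1) was detected on 3 of 3 arrays in WT PGCLC and in the cells without cytokines, while Itgb3 (CD61) was detected on at most 1 array of any group. Their transcripts therefore gave little check of the sort.

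All values below are log2 signals after background correction and quantile normalization, in the replicate order of the labels, and a difference is a difference of log2 means with its standard error (SE). A gene counts as called where limma's Benjamini-Hochberg adjusted p over the 11649 genes was under 0.05. Where a probe was detected on no array of a group, the fold is given as a lower bound, with the lowest signal of any detected probe on those arrays (4.83 to 5.31) in place of its own. Levels of different genes are not set against each other, since each probe has its own brightness.

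**Figure D1:**
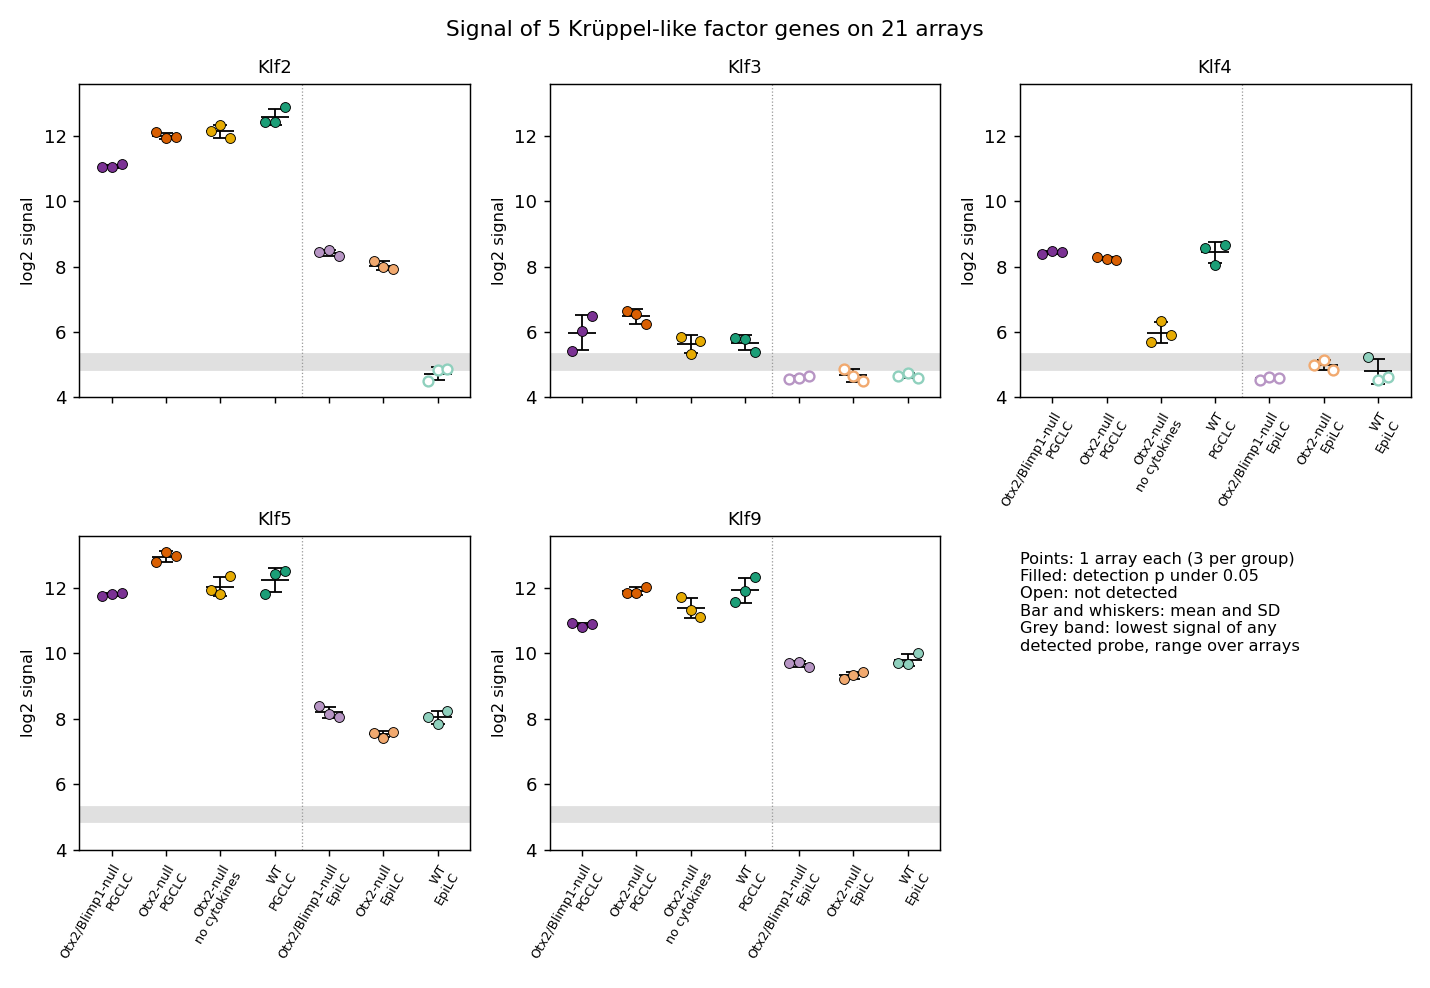
The log2 signal of Klf2, Klf3, Klf4, Klf5 and Klf9 (y axis) on each of 3 arrays in 7 groups (x axis), with mean and SD; day-6 groups lie left of the dotted line and EpiLC right of it. Day-6 signals lie above EpiLC signals of the same line for the 5 genes, Klf4 is lower without cytokines than in the other day-6 groups, and Klf2 is detected in mutant EpiLC but not in WT EpiLC.

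The signal of the 5 genes was higher in day-6 cells than in EpiLC of the same line, in each of the 4 comparisons. In WT PGCLC against WT EpiLC, Klf5 rose 18.4-fold and Klf9 4.38-fold, Klf2 at least 173-fold and Klf3 at least 1.43-fold. Klf4, detected on 1 of 3 WT EpiLC arrays, rose 12.5-fold by its fitted means and 9.71-fold with the other 2 arrays at the detection floor. All 5 passed as higher in this comparison, where 35.4% of the genes tested were called higher and 27.4% lower. The same 5 of 5 count was reached in Otx2-null PGCLC (35.8% of genes higher, 29.6% lower), in Otx2-null cells without cytokines (35.8% higher, 30.2% lower) and in Otx2/Blimp1-null PGCLC (20.5% higher, 22.8% lower), each against EpiLC of its own line. In all comparisons here, a count of 0 in a direction was also 0 at an unadjusted limma p under 0.05, except 1 lower between the mutant EpiLC lines and 1 higher in the second comparison of induction between lines. With 5 genes, and with over 20% of genes called higher in each comparison, the counts say little. Klf3 was detected on no EpiLC array and Klf4 on 1, so both passed the detection filter only through day-6 arrays. For these 2 genes a call in the lower direction was not open. The 5 genes were also chosen with earlier results of these data known, so the counts and sizes here are descriptive. The median difference of the 5 was 2.66 in the Otx2/Blimp1-null line, against -0.036 for the genes tested, 3.26 against 0.047 in Otx2-null PGCLC, 2.06 against 0.0327 without cytokines and 3.64 against 0.0566 in WT. With undetected arrays at the floor, the median of the 5 was 2.96 in Otx2-null PGCLC and 3.28 in WT, and the other 2 medians did not move. In such bulk samples, fewer cells of a type and less RNA per cell cannot be told apart. The cytokine-free and the Otx2-null PGCLC comparisons share their EpiLC arrays. Without the reordered array the Otx2-null PGCLC differences were 4.00 for Klf2, 1.77 for Klf3, 3.27 for Klf4, 5.37 for Klf5 and 2.61 for Klf9, all still called.

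Klf2 is a regulator of naive pluripotency and, in the body, of endothelial quiescence and of T-cell trafficking. Its signal was 11.04, 11.06 and 11.13 in Otx2/Blimp1-null PGCLC, 12.11, 11.94 and 11.96 in Otx2-null PGCLC, 12.16, 12.34 and 11.93 in Otx2-null cells without cytokines and 12.44, 12.42 and 12.88 in WT PGCLC. In EpiLC it was 8.43, 8.51 and 8.31 in the Otx2/Blimp1-null line, 8.17, 8.00 and 7.92 in the Otx2-null line and 4.49, 4.83 and 4.86 in WT. No day-6 array overlapped any EpiLC array, and the WT EpiLC signals lay below detection on 3 of 3 arrays. From highest to lowest the order was WT PGCLC, Otx2-null cells without cytokines, Otx2-null PGCLC, Otx2/Blimp1-null PGCLC, Otx2/Blimp1-null EpiLC, Otx2-null EpiLC and WT EpiLC, and of these neighbours only the cytokine-free and the Otx2-null PGCLC arrays overlapped. Klf2 rose on induction by 2.66 (SE 0.15, limma adjusted p = 1.37e-12) in the Otx2/Blimp1-null line and by 3.97 (SE 0.15, adjusted p = 1.06e-15) in the Otx2-null line. Without cytokines the difference was 4.11 (SE 0.15, adjusted p = 5.5e-16), and in WT the fitted value was 7.85 (SE 0.15, adjusted p = 7.2e-21), with the bound of at least 173-fold.

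The 250 bases before the start of Klf2 are shown because Klf2 moved most between lines. RefSeq (GRCm38.p6) places them at chr8:72318812-72319061 on the plus strand. Capitals mark the GC box GGGCGG on either strand and the MEF2-type pattern CTANNNNTAG, read as CTAAATTTAG and starting 118 bases before the start.
Klf2: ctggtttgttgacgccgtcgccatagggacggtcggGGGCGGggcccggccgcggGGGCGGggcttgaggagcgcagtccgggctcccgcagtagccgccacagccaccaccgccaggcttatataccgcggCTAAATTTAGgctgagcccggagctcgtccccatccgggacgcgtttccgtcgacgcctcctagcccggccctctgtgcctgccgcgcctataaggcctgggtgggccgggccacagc
The pattern reads the same on both strands and stood in 3.2% of 32851 RefSeq promoters of the same length, and a GC box in 32.7%. The Klf2 window held 2 GC boxes, and 71.2% of its bases were G or C, against a median of 52.4%. MEF2 factors, below the kinases MEK5 and ERK5, are known activators of Klf2 in endothelium, so genes of that route were read. Of 7 such genes 5 had a kept probe. In WT PGCLC against WT EpiLC, 2 of the 5 were called higher and none lower, namely Map3k3 (1.51, SE 0.17) and Map2k5 (0.87, SE 0.23), both kinases above ERK5. Over the genes tested 35.4% were called higher and 27.4% lower there, so the count of higher calls lay near that share. The same 2 kinase genes were called higher in Otx2-null PGCLC (1.13 and 0.55) and without cytokines (1.12 and 0.94). In each of these comparisons 35.8% of genes were called higher, with 29.6% and 30.2% lower. In Otx2/Blimp1-null PGCLC 0 of the 5 were called by limma, where 20.5% of genes were called higher and 22.8% lower. There Map3k3 differed by 0.34 (SE 0.17) and Map2k5 by -0.29 (SE 0.23). Mapk7, which encodes ERK5 itself, was called lower in Otx2-null PGCLC (at least 1.17-fold). In either mutant EpiLC line against WT EpiLC none of the 5 was called. Over the genes tested 8.22% were called higher and 10.5% lower in the Otx2-null line, and 9.48% and 8.64% in the Otx2/Blimp1-null line. In those EpiLC comparisons, and in the Otx2/Blimp1-null induction, the count at an unadjusted limma p under 0.05 was also 0. Map3k2 and Mef2a had no kept probe. Transcript levels do not measure the activity of this route, and its part in the Klf2 differences was not tested.

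Klf4, one of the reprogramming factors and a target of STAT3 in embryonic stem cells, had 3 kept probes. Through the brightest, its signal was 8.38, 8.48 and 8.44 in Otx2/Blimp1-null PGCLC, 8.31, 8.24 and 8.21 in Otx2-null PGCLC, 5.70, 6.35 and 5.90 in Otx2-null cells without cytokines and 8.58, 8.06 and 8.67 in WT PGCLC. In EpiLC it was 4.54, 4.63 and 4.60 in the Otx2/Blimp1-null line, 5.00, 5.13 and 4.84 in the Otx2-null line, and 5.23, 4.54 and 4.61 in WT, where replicate 1 was the one EpiLC array that passed detection. The WT PGCLC arrays spanned both other PGCLC groups, the cytokine-free cells lay below them and above EpiLC, and the EpiLC groups were at background. Klf4 rose on induction by 3.85 (SE 0.19, adjusted p = 1.1e-13, at least 9.47-fold) in the Otx2/Blimp1-null line, by 3.26 (SE 0.19, adjusted p = 9.94e-13, at least 7.79-fold) in Otx2-null PGCLC and by 3.64 (SE 0.19, adjusted p = 1.63e-13) in WT. Without cytokines the difference from EpiLC was 0.99 (SE 0.19, adjusted p = 6.07e-05, at least 1.61-fold), but on the authors' normalized values, which compress dim signals, it was 0.043 (adjusted p = 0.86). The other 2 probes gave smaller differences in the same direction in each of these 4 comparisons, 1.97 and 3.16 in WT, 1.75 and 2.88 in Otx2-null PGCLC, 2.03 and 3.22 in the Otx2/Blimp1-null line and 0.58 and 1.01 without cytokines, and all of these were called.

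**Figure D2:**
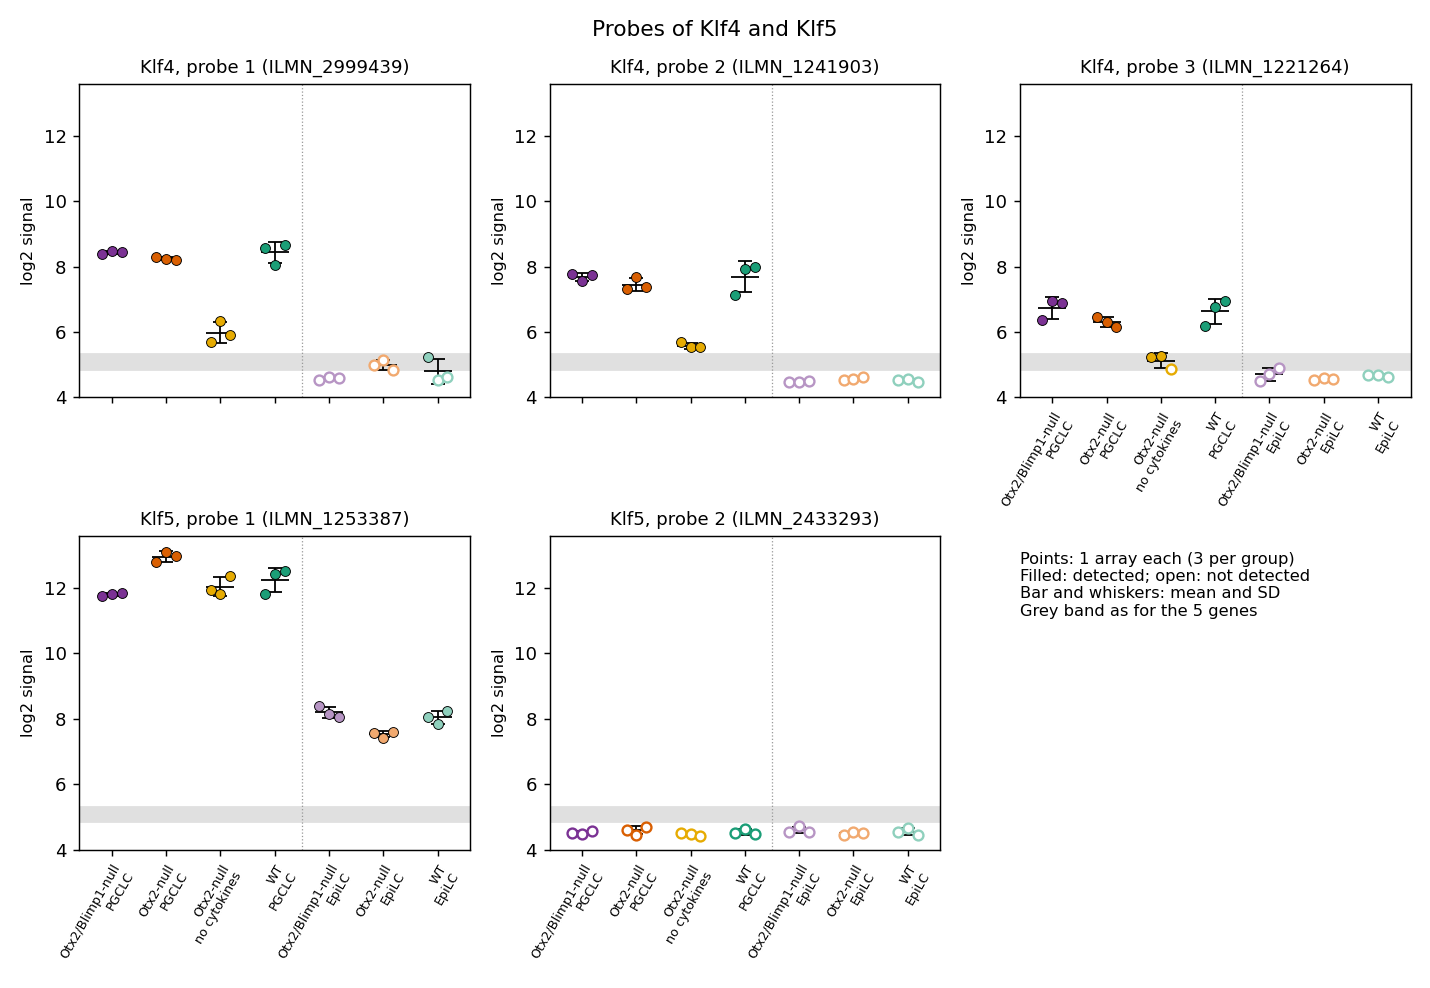
The log2 signal (y axis) of 3 probes of Klf4 and 2 probes of Klf5 on each array of 7 groups (x axis), with mean and SD and open points where a probe was not detected. The Klf4 probes order the groups alike at day 6, with the cells without cytokines lowest, and the second Klf5 probe is detected on 0 of 21 arrays.

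The 250 bases before the start of Klf4 are shown because Klf4 was the member that moved most with cytokines. RefSeq (GRCm38.p6) places them at chr4:55532476-55532725 on the minus strand. Capitals mark GC boxes on either strand.
Klf4: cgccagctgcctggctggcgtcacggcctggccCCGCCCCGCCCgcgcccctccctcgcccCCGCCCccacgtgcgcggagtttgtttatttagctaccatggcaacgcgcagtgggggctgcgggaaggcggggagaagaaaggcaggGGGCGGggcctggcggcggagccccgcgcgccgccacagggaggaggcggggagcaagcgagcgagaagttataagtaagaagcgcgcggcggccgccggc
The window held 4 GC boxes, no MEF2-type pattern and no STAT-type pattern TTCNNNGAA, which reads the same on both strands and stood in 7.02% of promoters. The other 2 windows at hand, of Klf3 and Klf9, held 6 GC boxes and 0 GC boxes, and Klf9 held 1 STAT-type pattern, while none of the 4 held the bicoid-type pattern TAATCC, which stood on either strand in 6.25% of promoters. The table matched 4 of the 5 genes and held no entry for Klf5.

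Klf5 is needed for the trophectoderm and inner cell mass of the blastocyst and, later, for proliferating epithelium. Its signal was 11.74, 11.82 and 11.85 in Otx2/Blimp1-null PGCLC, 12.80, 13.11 and 12.99 in Otx2-null PGCLC, 11.94, 11.82 and 12.37 in Otx2-null cells without cytokines and 11.83, 12.43 and 12.51 in WT PGCLC. In EpiLC it was 8.39, 8.14 and 8.07 in the Otx2/Blimp1-null line, 7.58, 7.41 and 7.59 in the Otx2-null line and 8.05, 7.85 and 8.25 in WT. Otx2-null PGCLC lay above every other array and Otx2-null EpiLC below every other array, so the change on induction was widest in that line. It was 3.61 (SE 0.18, adjusted p = 1.28e-13) in the Otx2/Blimp1-null line, 5.44 (SE 0.18, adjusted p = 8.54e-17) in Otx2-null PGCLC, 4.52 (SE 0.18, adjusted p = 1.6e-15) without cytokines and 4.21 (SE 0.18, adjusted p = 6.4e-15) in WT. A second probe annotated to the same transcript was detected on 0 of 21 arrays, so the Klf5 values rest on 1 probe.

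Klf3 was read through 1 probe annotated by a cDNA clone. Its signal was 5.42, 6.04 and 6.49 in Otx2/Blimp1-null PGCLC, 6.65, 6.55 and 6.23 in Otx2-null PGCLC, 5.85, 5.32 and 5.73 in Otx2-null cells without cytokines and 5.81, 5.79 and 5.40 in WT PGCLC. It was detected on 12 of 12 day-6 arrays and on 0 of 9 EpiLC arrays, where it lay between 4.49 and 4.88. The rise on induction was 1.38 (SE 0.20, adjusted p = 7.45e-06, at least 1.73-fold) in the Otx2/Blimp1-null line and 1.80 (SE 0.20, adjusted p = 5.39e-08, at least 2.27-fold) in Otx2-null PGCLC. It was 0.96 (SE 0.20, adjusted p = 0.000254, at least 1.27-fold) without cytokines and 1.00 (SE 0.20, adjusted p = 0.000178, at least 1.43-fold) in WT. On the authors' normalized values these last 2 differences were 0.027 and 0.028, with adjusted p of 0.31 for both, and the first 2 were 0.061 (adjusted p = 0.0418) and 0.12 (adjusted p = 0.000198). Of 3 Klf3 corepressor genes only Ctbp2 had a kept probe, and it fell by 0.63 (SE 0.18) in Otx2-null PGCLC and by 0.52 (SE 0.18) without cytokines. It was not called in the Otx2/Blimp1-null line (-0.36) or in WT (-0.25).

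Klf9 was detected on 21 of 21 arrays. Its signal was 10.93, 10.82 and 10.90 in Otx2/Blimp1-null PGCLC, 11.84, 11.86 and 12.05 in Otx2-null PGCLC, 11.72, 11.34 and 11.13 in Otx2-null cells without cytokines and 11.57, 11.90 and 12.33 in WT PGCLC. In EpiLC it was 9.70, 9.75 and 9.59 in the Otx2/Blimp1-null line, 9.22, 9.34 and 9.43 in the Otx2-null line and 9.69, 9.68 and 10.02 in WT. Day-6 arrays lay above EpiLC arrays with no overlap. Within day 6, WT PGCLC overlapped both Otx2-null PGCLC and the cells without cytokines. Klf9 rose by 1.21 (SE 0.17, adjusted p = 4.51e-06) in the Otx2/Blimp1-null line, 2.59 (SE 0.17, adjusted p = 1.15e-11) in Otx2-null PGCLC, 2.06 (SE 0.17, adjusted p = 3.7e-10) without cytokines and 2.13 (SE 0.17, adjusted p = 2.81e-10) in WT. Genes known to respond to glucocorticoid did not all move in the direction of Klf9. Of 6 with a kept probe, 3 were called higher and 1 lower in WT PGCLC against WT EpiLC, where 35.4% of the genes tested were called higher and 27.4% lower, with a median of 0.50 against 0.0566. The counts were 4 higher and 2 lower in Otx2-null PGCLC (35.8% and 29.6% of genes) and 3 and 2 in the cytokine-free cells (35.8% and 30.2%). In the Otx2/Blimp1-null line they were 2 and 1 (20.5% and 22.8%). Lists this short say little against shares of that size. Per1, a clock gene, was higher by 0.87 (SE 0.25) in Otx2-null PGCLC and by 1.16 (SE 0.25) in WT. Sgk1 was higher by 2.08 (SE 0.21) and 0.70 (SE 0.21) in the same order, and Dusp1 by 0.87 (SE 0.16) and 1.02 (SE 0.16). Fkbp5 was higher in Otx2-null PGCLC (1.26, SE 0.23) and not called in WT (0.31). Tsc22d3 (the glucocorticoid-induced leucine zipper) was lower in both, at -2.46 (SE 0.20) and -0.68 (SE 0.20). Zbtb16 was lower in Otx2-null PGCLC (-0.52, SE 0.19) and not called in WT (-0.010).

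**Figure D3:**
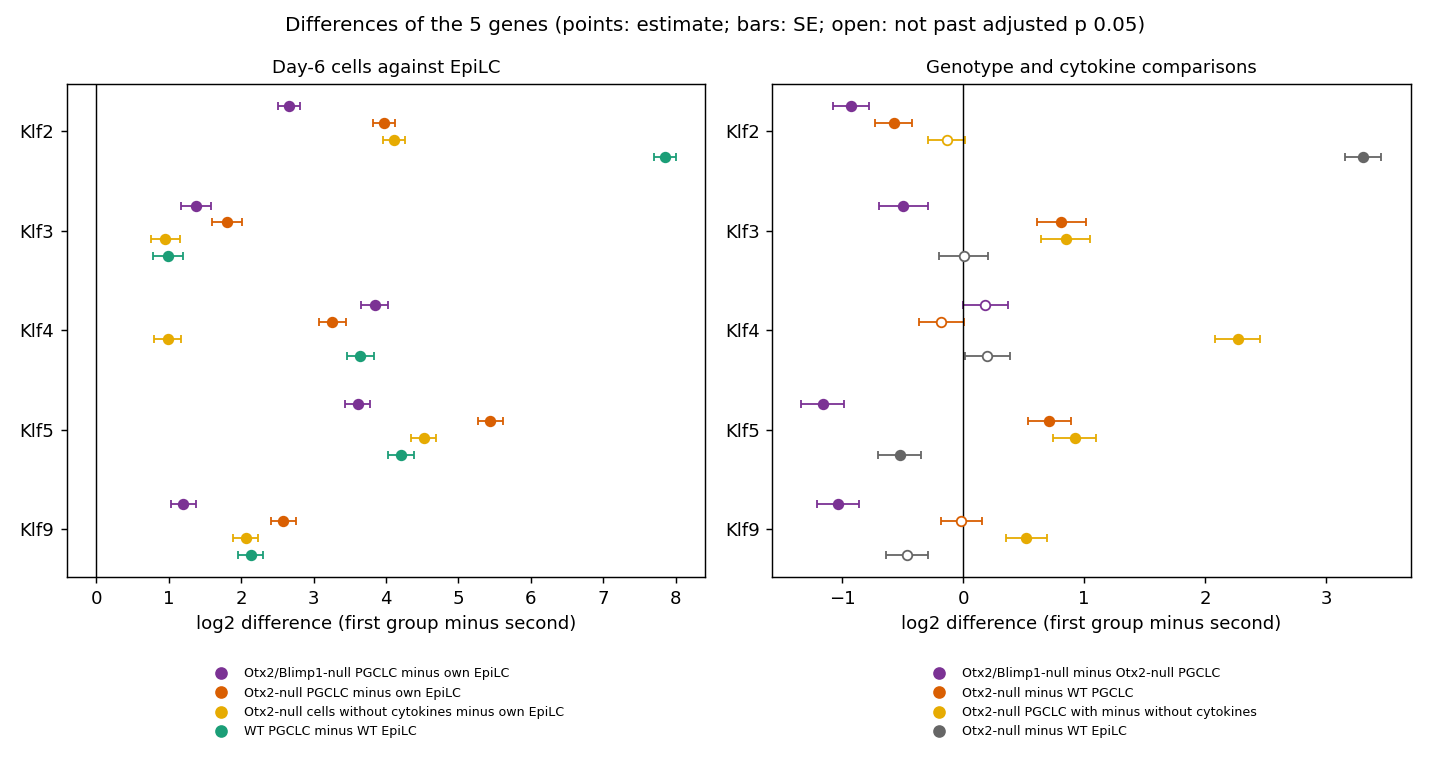
Differences in log2 signal (x axis, points with SE bars) of the 5 genes (y axis); the left panel shows 4 comparisons of day-6 cells with EpiLC of the same line and the right panel 4 comparisons of genotype or cytokines. Filled points passed an adjusted p of 0.05. In the right panel, the largest genotype difference shown is Klf2 in Otx2-null against WT EpiLC (3.31), and the largest cytokine difference is Klf4 (2.27).

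Cytokines were compared within the Otx2-null line, as PGCLC against day-6 cells grown without them. Klf4 was higher with cytokines by 2.27 (SE 0.19, adjusted p = 8.91e-09, 4.83-fold) and its groups did not overlap, while Klf2 differed by -0.14 (SE 0.15, adjusted p = 0.669, 95% interval -0.45 to 0.18). Klf5 was higher by 0.92 (SE 0.18, adjusted p = 0.000655), Klf3 by 0.85 (SE 0.20, adjusted p = 0.00536) and Klf9 by 0.52 (SE 0.17, adjusted p = 0.0416). So 4 of 5 were called higher and 0 lower, where 8.38% of the genes tested were called higher and 7.37% lower. The other 2 Klf4 probes differed by 1.17 and 1.87, both called. On the authors' normalized values Klf4 was higher by 3.48 (adjusted p = 7.13e-10) and Klf3 by 0.092 (adjusted p = 0.00874), so the sizes of both depend on the scaling. The Klf9 call was lost in 5 of 6 fits that left out 1 array, with differences from 0.39 to 0.68, and on the authors' normalized values (0.54, adjusted p = 0.058). Without the reordered array the values were 2.28 for Klf4, 0.85 for Klf5, 0.81 for Klf3 and 0.55 for Klf9, the last no longer called (adjusted p = 0.0796).

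LIF, which drives STAT3, was among the cytokines, and 13 of 13 genes of that pathway had a kept probe. BMP4, BMP8a, SCF and EGF were added together with LIF, so its part cannot be told apart from theirs. With cytokines 5 of the 13 were called higher and 1 lower, with a median of 0.20 against -0.0115 over the genes tested. Of all genes tested 8.38% were called higher and 7.37% lower in this comparison. Socs3, the feedback inhibitor of STAT3, was higher by 2.79 (SE 0.19), Gbx2, a homeobox target of LIF, by 2.40 (SE 0.24), Stat3 by 1.86 (SE 0.23) and Bcl3 by 1.56 (SE 0.14). Jak1 was higher by 0.89 (SE 0.16) and Jak2, another kinase of the receptor, lower at -0.59 (SE 0.17). The receptor genes Lifr (0.20, SE 0.17) and Il6st (-0.45, SE 0.25) were not called. Of 12 naive pluripotency partners with a kept probe, 3 were called higher and 0 lower, namely Tbx3 (1.27, SE 0.20), Zfp42 (0.83, SE 0.17) and Fbxo15 (0.70, SE 0.17). The germ cell marker sum also differed, at 10530 to 12760 with cytokines and 17830 to 21470 without. Its part in the Klf4 difference, and that of LIF, was not tested.

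**Figure D4:**
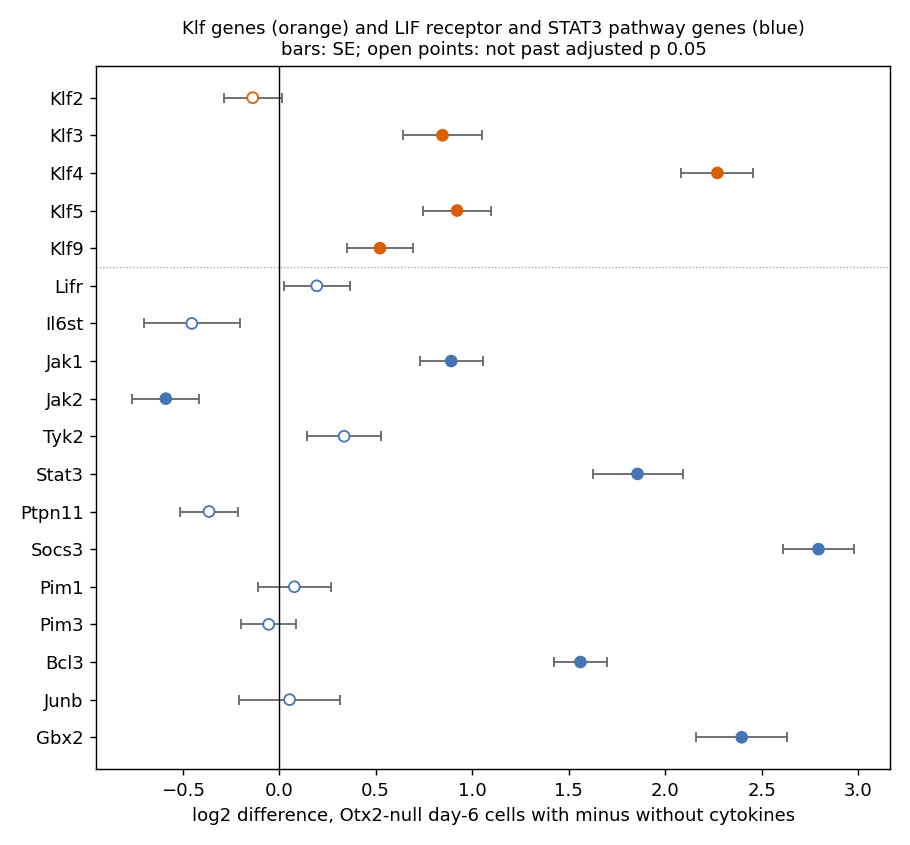
Difference in log2 signal between Otx2-null day-6 cells with and without cytokines (x axis, points with SE bars) for the 5 Krüppel-like factor genes (orange) and 13 genes of the LIF receptor and STAT3 pathway (blue); open points did not pass an adjusted p of 0.05. Klf4 is at 2.27 and Klf2 at -0.14, and among the pathway genes Socs3 is at 2.79, Gbx2 at 2.40 and Stat3 at 1.86. The part of LIF among the cytokines was not tested.

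Between Otx2-null and WT PGCLC, which differ in line, the 5 genes went different ways. Klf3 was higher by 0.81 (SE 0.20, adjusted p = 0.00567) and Klf5 by 0.71 (SE 0.18, adjusted p = 0.0051), while Klf2 was lower, at -0.58 (SE 0.15, adjusted p = 0.00741). Klf4 (-0.18, SE 0.19, 95% interval -0.57 to 0.20) and Klf9 (-0.014, SE 0.17, interval -0.37 to 0.34) were not called. That made 2 higher and 1 lower, where 8.94% of genes were called higher and 12.4% lower. The Klf2 call ended without WT PGCLC replicate 3 (-0.43, adjusted p = 0.061) and the Klf5 call without WT PGCLC replicate 1 (0.50, adjusted p = 0.0505). On the authors' normalized values Klf3 differed by 0.091 (adjusted p = 0.00731). Without the reordered array Klf2 differed by -0.55, Klf3 by 0.77 and Klf5 by 0.64.

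Against WT PGCLC, Otx2-null cells without cytokines had less Klf4, at -2.45 (SE 0.19, adjusted p = 1.41e-09, 5.48-fold lower), and the other 2 Klf4 probes differed by -1.51 and -2.11. On the authors' normalized values the Klf4 difference was -3.74 (adjusted p = 2.21e-10). Klf9 (-0.54, SE 0.17, adjusted p = 0.025) and Klf2 (-0.44, SE 0.15, adjusted p = 0.0359) were lower too, so 3 of 5 were called lower and 0 higher, where 14.2% of genes were called lower and 10.2% higher. Klf3 (-0.036, SE 0.20) and Klf5 (-0.21, SE 0.18, interval -0.58 to 0.15) were not called. The Klf2 and Klf9 calls rested on single arrays. Without WT PGCLC replicate 3 the differences were -0.29 for Klf2 (adjusted p = 0.207) and -0.34 for Klf9 (adjusted p = 0.18), and without replicate 3 of the cytokine-free cells they were -0.33 (adjusted p = 0.173) and -0.40 (adjusted p = 0.142). Both calls also ended when the 2 groups were fitted alone, at adjusted p of 0.073 and 0.0775.

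Markers of other cell types differed between the day-6 groups. Of 6 keratins of epithelium, a tissue known to express Klf4 and Klf5, 5 had a kept probe, with a summed signal of 157.6 to 175 in Otx2/Blimp1-null PGCLC, 160.2 to 195.9 in Otx2-null PGCLC, 220.7 to 327.2 in cells without cytokines and 1508 to 2724 in WT PGCLC. The trophoblast list (4 of 6 kept) summed to 124.8 to 142.8 in Otx2/Blimp1-null PGCLC, 123.1 to 149.7 in Otx2-null PGCLC, 121.5 to 153.3 without cytokines and 422.3 to 473.4 in WT PGCLC. There Cdx2 and Gata3 were detected in WT PGCLC alone of the 7 groups, while Elf5 and Hand1 had no kept probe. Tfap2a was also lower than in WT PGCLC in each mutant group, at -0.57, -0.89 and -1.15 in the order above. Eomes went the other way, called higher without cytokines (0.51, SE 0.14) and not called in Otx2/Blimp1-null (0.016) or Otx2-null PGCLC (0.16). The blood list (3 of 5 kept) summed to 83.95 to 87.09 in Otx2/Blimp1-null PGCLC, 69.44 to 83.5 in Otx2-null PGCLC, 73.11 to 76.81 in the cells without cytokines and 414.4 to 634.4 in WT PGCLC, with Hba-a1 and Hbb-y detected in WT PGCLC alone of the 7 groups. The third kept gene, Spi1, was called higher in Otx2/Blimp1-null than in WT PGCLC (at least 1.33-fold). It was not called in Otx2-null PGCLC or without cytokines. The endoderm list (2 of 5 kept) summed to 48.88 to 74.2 in Otx2/Blimp1-null PGCLC, 51.66 to 55.68 in Otx2-null PGCLC, 50.8 to 61.74 without cytokines and 124.9 to 257.6 in WT PGCLC. Its Gata6 was lower than in WT PGCLC by limma in each of the 3 mutant groups, at -2.27, -2.22 and -2.34 in that order (SE 0.21 each). Gata4, its other kept gene, was not called in any of them (0.077, -0.21 and -0.017). The mesoderm list (1 of 4 kept) summed to 23.85 to 36.56, 25.6 to 32.25, 27.58 to 35.24 and 31.14 to 39.19 in the same 4 groups. The part of these lists in the differences from WT PGCLC was not tested.

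Loss of Blimp1 was read between Otx2/Blimp1-null and Otx2-null PGCLC, where Otx2 is absent from both by label. Klf5 was lower, at -1.16 (SE 0.18, adjusted p = 9.84e-06, 2.24-fold), Klf9 at -1.03 (SE 0.17, adjusted p = 3.15e-05, 2.05-fold) and Klf2 at -0.93 (SE 0.15, adjusted p = 2.3e-05, 1.90-fold), with no overlap of arrays for these 3. Klf4 differed by 0.18 (SE 0.19, adjusted p = 0.456, interval -0.20 to 0.57). Klf3 was at the threshold (-0.49, SE 0.20, adjusted p = 0.0498) and its arrays overlapped. Thus 4 of 5 were called lower and 0 higher, where 28.3% of genes were called lower and 20% higher. The median of the 5 was -0.93, against -0.0681 over the genes tested. The Klf3 call ended under several alternatives, with a value of -0.22 (adjusted p = 0.395) without Otx2/Blimp1-null PGCLC replicate 1 and an adjusted p of 0.0606 with the replicate number as a block, and on the authors' normalized values it was -0.060 (adjusted p = 0.0359). Among the 12 naive pluripotency partners 5 were called lower and 0 higher in the same comparison, led by Esrrb (-1.62, SE 0.15), Tfcp2l1 (-1.53, SE 0.15) and Sall4 (-1.38, SE 0.30), and their median was -0.13. Of the 13 LIF and STAT3 genes 5 were called lower and 0 higher, with a median of -0.26, among them Ptpn11, a phosphatase bound by the receptor (-1.27, SE 0.15), and Stat3 (-0.81, SE 0.23). Without the reordered array Klf5 differed by -1.09, Klf9 by -1.06, Klf2 by -0.96 and Klf3 by -0.46, the last not called (adjusted p = 0.122).

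The same cells were compared with WT PGCLC, whose 3 arrays also serve in the comparisons of Otx2-null day-6 cells with WT. Klf2 was lower, at -1.50 (SE 0.15, adjusted p = 1.88e-08, 2.83-fold), as was Klf9, at -1.05 (SE 0.17, adjusted p = 1.75e-05), and Klf5 at -0.45 (SE 0.18, adjusted p = 0.0335). Klf4 differed by 0.0012 (SE 0.19, interval -0.39 to 0.39) and Klf3 by 0.32 (SE 0.20, adjusted p = 0.2). So 3 of 5 were called lower and 0 higher, where 34.2% of genes were called lower and 22.5% higher. The Klf5 call ended without any of 5 single arrays, with differences from -0.66 to -0.32 over the arrays left out, and on the authors' normalized values (-0.46, adjusted p = 0.10). Without WT PGCLC replicate 1 its difference was the -0.66, and without Otx2/Blimp1-null PGCLC replicate 1 Klf3 became called (0.60, adjusted p = 0.0116). The germ cell marker sum, 3440 to 4297 in Otx2/Blimp1-null PGCLC, was below that of the other day-6 groups, and its part in these differences was not tested.

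Before induction, Klf2 set the mutant EpiLC apart from WT EpiLC. It was detected on 3 of 3 arrays in Otx2/Blimp1-null and in Otx2-null EpiLC and on 0 of 3 in WT EpiLC, with means of 8.42 ± 0.10, 8.03 ± 0.13 and 4.73 ± 0.20 (SD, n = 3 each). The difference from WT EpiLC was 3.69 (SE 0.15, adjusted p = 1.22e-13, at least 9.66-fold) in the Otx2/Blimp1-null line and 3.31 (SE 0.15, adjusted p = 1.33e-12, at least 7.39-fold) in the Otx2-null line. Klf5 was lower in Otx2-null than in WT EpiLC, at -0.52 (SE 0.18, adjusted p = 0.0405), and Klf9 missed the threshold at -0.47 (SE 0.17, adjusted p = 0.0622). Klf3 (0.0037), detected on 0 of these 6 arrays, and Klf4 (0.20), detected on 1, were not called. Of the 5, 1 was called higher and 1 lower in Otx2-null EpiLC, where 8.22% of genes were called higher and 10.5% lower. In Otx2/Blimp1-null EpiLC 1 was called higher and 0 lower, where 9.48% were called higher and 8.64% lower. The Klf5 call ended in 5 of 6 fits that left out 1 array, with differences from -0.62 to -0.42, while on the authors' normalized values the difference was -1.07 (adjusted p = 0.00393).

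Among markers of endothelium, a cell type known to express Klf2, Cldn5 and Tek were called higher than in WT EpiLC in both mutant lines. Cdh5, Kdr, Emcn and Esam were not called in either. The 6 kept genes of 7 summed to 520.2 to 566.9 in Otx2/Blimp1-null EpiLC, 576.8 to 740.7 in Otx2-null EpiLC and 189.9 to 236.1 in WT EpiLC. Cldn5, a tight-junction gene, had mean signals of 8.50, 8.84 and 5.55 in these 3 groups. Tek, which encodes the angiopoietin receptor Tie2, had 6.06, 6.00 and 5.45, and was called higher than in WT EpiLC in the Otx2/Blimp1-null line (0.61, SE 0.18, adjusted p = 0.017) and the Otx2-null line (0.55, SE 0.18, adjusted p = 0.0319). The defining markers Emcn and Esam were detected on none of the 9 EpiLC arrays, Cdh5 and Kdr on at most 1 of 3 in any EpiLC group, and Tie1 had no kept probe. At day 6, Klf2 was high in every group. Of the 7 listed genes, 3 were detected on all arrays in Otx2/Blimp1-null PGCLC, in Otx2-null PGCLC and in the cells without cytokines. Emcn was not detected in these groups and Esam was. In WT PGCLC, 5 of the 7 were detected on all arrays. The fibroblast list (3 of 5 kept) had a lower sum in the mutant lines, at 432.1 to 548.4 in Otx2/Blimp1-null EpiLC, 356.3 to 528.7 in Otx2-null EpiLC and 791.4 to 992.8 in WT EpiLC. The part of either list in the EpiLC differences was not tested.

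Partner genes of naive pluripotency were set beside Klf2 in EpiLC. In Otx2-null against WT EpiLC 6 of 12 were called higher and 1 lower, with a median of 0.48 (0.19 with undetected groups at the detection floor) against -0.0261 over the genes tested. Of all genes tested 8.22% were called higher and 10.5% lower there. Fbxo15 was higher by 2.41 (SE 0.17), Esrrb, a nuclear receptor of the naive network, by 2.38 (SE 0.15), Zfp42 (Rex1) by 1.18 (SE 0.17) and Nanog by 0.85 (SE 0.19), while Tfcp2l1 was lower (at least 1.12-fold). In Otx2/Blimp1-null EpiLC 6 were called higher and 0 lower, where 9.48% of genes were called higher and 8.64% lower. Esrrb was at 2.25 (SE 0.15) and Fbxo15 at 1.78 (SE 0.17).

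Between the 2 mutant lines as EpiLC, Klf5 was higher in Otx2/Blimp1-null than in Otx2-null cells by 0.67 (SE 0.18, adjusted p = 0.0137), and Klf2 by 0.39 (SE 0.15) without passing (adjusted p = 0.0807). That was 1 of 5 called higher and 0 lower, where 9.79% of genes were called higher and 6.21% lower. The Klf5 call ended without Otx2/Blimp1-null EpiLC replicate 1 (0.58, adjusted p = 0.0853). On the authors' normalized values the Klf5 difference was 1.32 (adjusted p = 0.00157) and Klf2 was called as well (0.62, adjusted p = 0.007).

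The size of the change on induction was compared between lines as a difference of differences. Klf2 changed less in the Otx2-null line than in WT, by -3.88 (SE 0.21, adjusted p = 2.34e-11), or -3.46 with WT EpiLC set at the detection floor, and Klf5 changed more, by 1.24 (SE 0.25, adjusted p = 0.00135). Klf3 (0.81, SE 0.29, adjusted p = 0.0595), Klf4 (-0.38, SE 0.26) and Klf9 (0.45, SE 0.24) were not called. This was 1 of 5 higher and 1 lower, where 7.97% of genes were called higher and 8.45% lower. In the Otx2/Blimp1-null line 3 of 5 changed less than in the Otx2-null line and 0 more, where 28.7% of genes were called lower and 20.1% higher. These were Klf5 at -1.83 (SE 0.25, adjusted p = 3.37e-06), Klf9 at -1.38 (SE 0.24, adjusted p = 6.96e-05) and Klf2 at -1.31 (SE 0.21, adjusted p = 2.58e-05), against a median of -0.128 over the genes tested. Klf4 went the other way without passing (0.59, SE 0.26, adjusted p = 0.0707). It passed in 2 of 22 alternatives, 1 of them the fit on the 4 groups alone (adjusted p = 0.0159). The other 2 Klf4 probes gave 0.28 and 0.34 and the authors' normalized values 0.29 (adjusted p = 0.35), none called. Klf4 was detected on no EpiLC array of these 2 lines. With those arrays at the floor, its rise was 3.24 in the Otx2/Blimp1-null line and 2.96 in the Otx2-null line. Without the reordered array the called values were -3.85 and 1.16 in the first contrast and -1.76, -1.41 and -1.34 in the second.

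Other members of the family were read in the same comparisons. Of 21 other Klf and Sp genes 15 had a kept probe, and in WT PGCLC against WT EpiLC 5 were called higher and 1 lower, with a median of 0.10 (-0.036 at the floor). Over the genes tested 35.4% were called higher and 27.4% lower there. The counts were 4 higher and 3 lower in Otx2-null PGCLC (35.8% and 29.6% of genes), 6 and 1 without cytokines (35.8% and 30.2%), and 1 and 3 in Otx2/Blimp1-null PGCLC (20.5% and 22.8%), so no count of higher calls stood clear of its background. Sp5, a target of Wnt signalling, was detected in WT PGCLC alone of the 7 groups, at least 2.03-fold above WT EpiLC. Klf13 differed by -0.20 (SE 0.17) in the Otx2/Blimp1-null line and rose by 0.76 (SE 0.17) in Otx2-null PGCLC, 1.45 (SE 0.17) without cytokines and 1.04 (SE 0.17) in WT. Klf7 fell by 1.89 (SE 0.15) in the Otx2/Blimp1-null line, by 0.74 (SE 0.15) in Otx2-null PGCLC and by 0.75 (SE 0.15) in WT, while without cytokines it differed by -0.03 (SE 0.15) and was not called. Between Otx2/Blimp1-null and Otx2-null PGCLC 5 of these 15 were called lower and 0 higher, where 28.3% of genes were called lower and 20% higher, among them Klf7 (-1.04, SE 0.15) and Klf6 (-0.80, SE 0.16).

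**Figure D5:**
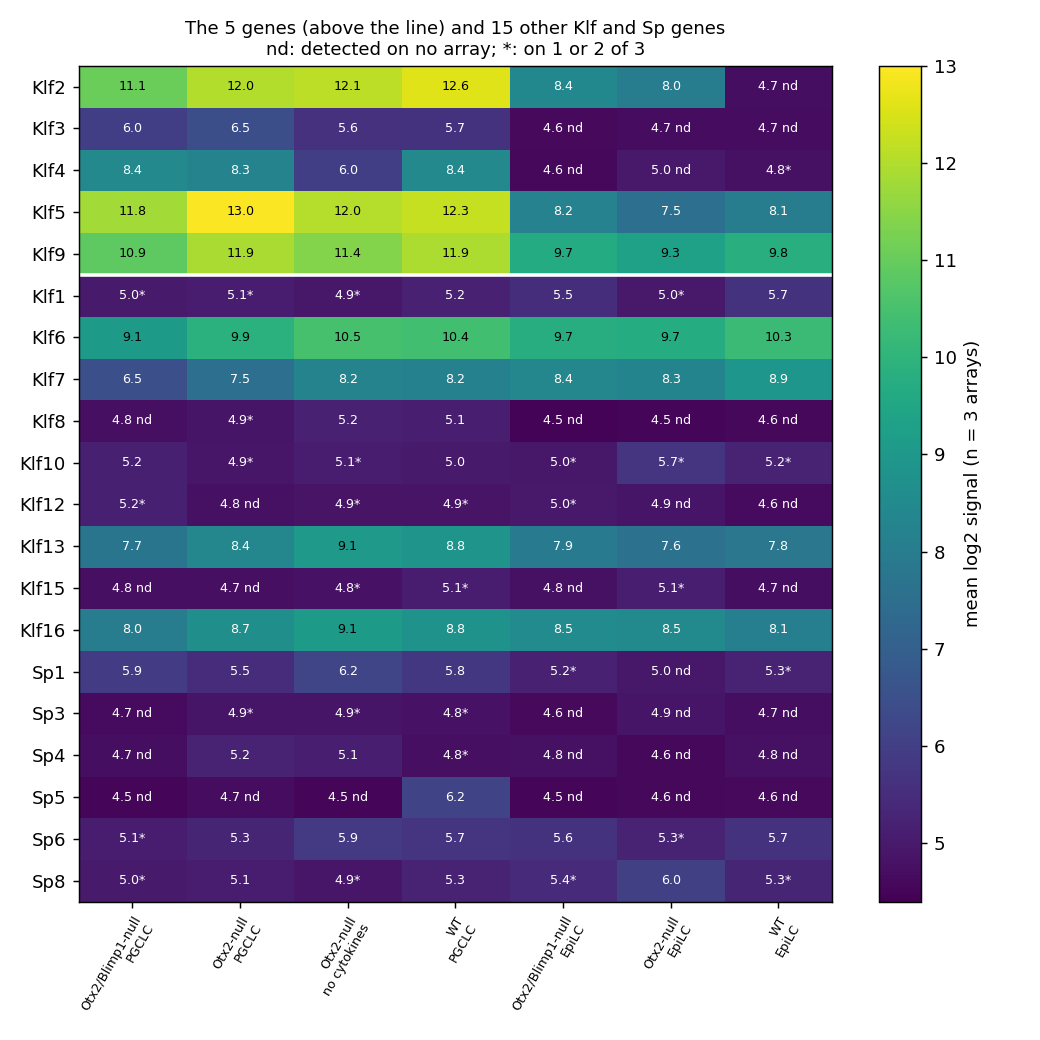
Mean log2 signal (colour and number, n = 3 arrays) of the 5 genes, above the white line, and of 15 other Klf and Sp genes, in 7 groups. The 5 genes are brighter in the 4 day-6 columns than in EpiLC of the same line, most others show no such step, and Sp5 stands above detection in WT PGCLC alone.

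Other genes of the same pathways were read for induction. Naive pluripotency partners rose in 11 of 12 in each of the 4 comparisons, with medians of 2.88 in the Otx2/Blimp1-null line, 3.11 in Otx2-null PGCLC, 3.38 in the cytokine-free cells and 3.02 in WT. Fgf4 was the member not called. Over the genes tested, 20.5%, 35.8%, 35.8% and 35.4% were called higher in that order, and 22.8%, 29.6%, 30.2% and 27.4% lower. The medians over the genes tested were -0.036, 0.047, 0.0327 and 0.0566. Some partners were not detected in EpiLC, so for these a lower call was hardly open. One was Nr0b1, which rose by 0.79 in WT, or 0.20 at the floor. Esrrb rose by 3.41, 4.91, 4.88 and 7.30 in that order of groups (SE 0.15 each). The LIF and STAT3 list had 7 of 13 higher and 2 lower in the Otx2/Blimp1-null line, 10 and 0 in Otx2-null PGCLC, 8 and 1 without cytokines and 10 and 1 in WT. Of 4 ubiquitin ligase genes known to act on Krüppel-like factors, 1 was called higher and 1 lower in the Otx2/Blimp1-null line, 1 higher in Otx2-null PGCLC, 2 higher without cytokines and 1 higher in WT, where the shares over the genes tested were 20.5% to 35.8% higher and 22.8% to 30.2% lower. Fbxw7 was called higher in each of the 4 comparisons (0.55, 0.56, 0.71 and 0.49 in the same order, SE 0.17 each). These lists were chosen with results of the same data known.

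For each gene, the 3 genes with the most similar pattern over the 21 arrays were named by Pearson's correlation, as a description over arrays that share lines and stages. They were picked on these same arrays, so the group means given below follow from the choice. For Klf2 they were Fzd10 (r = 0.989), Macroh2a1 (0.984) and Elf3 (0.983). These 3 had higher means in Otx2-null EpiLC, 7.49, 9.46 and 7.42, than in WT EpiLC, 6.21, 7.08 and 5.96. For Klf4 they were Stac2 (0.974), Bcl3 (0.967) and Slc38a8 (0.966), with means of 5.84, 6.40 and 5.89 in Otx2-null PGCLC against 5.01, 4.84 and 5.14 without cytokines. Klf5 was most like Fzd5 (0.993), Tfcp2l1 (0.992) and Myorg (0.989). Klf9 was most like Llgl2 (0.981), Lamc1 (0.980) and Pacsin1 (0.976), and Klf3 like 1700030C10Rik (0.945), Gli2 (0.941) and Adam23 (0.937).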

How the data were processed

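Total RNA of 21 samples was read on an Illumina bead array, 1 array per sample. The deposited intensity table is not raw: per the file headers it holds a signal and a detection p-value per probe. Its values appear already background-subtracted and equalized, since 15225 to 15328 probes per array are negative and the highest value is 30895 on every array, but these steps are not given in the sources used here. The authors' second table holds normalized log2 values, in which dim signals are compressed towards a floor. Limma is named, without a version, in the submitters' processing notes.

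Intensities were background-corrected and quantile-normalized (neqc, offset 16, with the deposited detection p-values), and groups were compared with limma 3.58.1 in R 4.3.3 (lmFit, eBayes), with group as the only term over all 21 arrays and Benjamini-Hochberg adjustment over 11649 genes. The pipeline was tested on simulated data. Since no counts underlie the values, the number of arrays limits the precision. Of the probes, 34885 had 1 gene symbol, 18 several and 10378 none in the platform annotation. Named genes were the 5 members, up to 4 genes of a list with the smallest p, genes that went against a list's median, and the 3 most alike by correlation. Fbxw7, Lifr, Il6st, Sp5, Klf6, Mapk7 and Nr0b1 were named after their values were seen. The members and lists were chosen with earlier results of these data known. Motifs were searched in the RefSeq promoter table with Python 3.11.15.

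Replicate numbers are given by the labels with no word on pairing. Deviations of same-numbered arrays correlated at -0.187 to 0.324 over 36 pairs, 13 of them over 0.1. In Otx2-null against WT EpiLC each of the 3 pairs was over 0.1 (0.135, 0.29 and 0.164). Alternatives were the authors' normalized values, log2 of the deposited intensities plus 50, other probe filters and summaries, a fit of only the groups compared, a trended robust prior, the replicate block, leaving out each array, the other Klf4 probes and single undetected arrays at the detection floor, the last 2 chosen after seeing the data.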

Additional observations from a re-analysis of the deposited data

Results flagged for a closer look

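A difference between lines in the size of the change on induction, tested as a difference of differences with limma over the 11649 genes, was found for 3 of the 5 genes. Klf2 differed by -3.88 between the Otx2-null line and WT (SE 0.21, adjusted p = 2.34e-11), with WT EpiLC below detection. Klf5 differed by 1.24 in the same contrast (SE 0.25, adjusted p = 0.00135). Between the Otx2/Blimp1-null and the Otx2-null line, Klf5 differed by -1.83 (SE 0.25, adjusted p = 3.37e-06), Klf9 by -1.38 (SE 0.24, adjusted p = 6.96e-05) and Klf2 by -1.31 (SE 0.21, adjusted p = 2.58e-05). The contrasts share the arrays of the Otx2-null line.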

How the results depend on the processing

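Over all alternatives 1068 values of the 5 genes were recomputed. Of these 994 kept their direction and side of the threshold, 46 lost and 10 gained a call, and 18 changed sign, all of them values not called at first. No called value reversed. Of 208 counts of called genes 194 stayed within 1.5 times. On the authors' normalized values the count was 3 in Otx2-null cells without cytokines against Otx2-null EpiLC and 2 in Otx2/Blimp1-null against Otx2-null EpiLC. Without a detection filter it was 1 in Otx2-null against WT EpiLC. Fitted on the groups compared alone it was 1 in cells without cytokines against WT PGCLC, 1 in Otx2-null against WT EpiLC and 0 in Otx2/Blimp1-null against Otx2-null EpiLC. In the same order, leaving out each array in turn gave 1 to 3, 1 to 2 and 0 to 1. In Otx2/Blimp1-null against Otx2-null EpiLC, the calls over all genes numbered 1863, but 36 when these groups were fitted alone, 603 without Otx2/Blimp1-null EpiLC replicate 1 and 1169 without Otx2-null EpiLC replicate 3. In Otx2-null against WT EpiLC they numbered 2183, and 1047 when fitted alone. Apart from fits with fewer samples, the cause was not tested.

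The sign changed for Klf3 in Otx2-null against WT EpiLC on the authors' values (-0.00020) and for Klf4 in Otx2/Blimp1-null against WT PGCLC on intensities plus 50 (-0.0011). The dimmest Klf4 probe gave -0.12 in Otx2-null against WT EpiLC, 0.15 in Otx2/Blimp1-null against Otx2-null EpiLC and 0.034 in Otx2/Blimp1-null against WT EpiLC. With single arrays left out, Klf4 ranged over -0.33 to 0.014 in Otx2/Blimp1-null against WT EpiLC and -0.19 to 0.12 in Otx2/Blimp1-null against WT PGCLC. Klf3 ranged over -0.099 to 0.095 in Otx2-null against WT EpiLC, -0.17 to 0.12 in cells without cytokines against WT PGCLC and -0.16 to 0.035 in Otx2/Blimp1-null against Otx2-null EpiLC, and Klf9 over -0.20 to 0.18 in Otx2-null against WT PGCLC. With the replicate number as a block, 1 of 46 calls was lost over 70 values, Klf3 in Otx2/Blimp1-null against Otx2-null PGCLC (-0.49, adjusted p = 0.0606), and 0 were gained.

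The folds of Klf2, Klf3 and Klf4 against EpiLC groups with no detected array are lower bounds. Each comparison rests on 3 arrays a group and each genotype on 1 line.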
